A study of Drosophila melanogaster with 3 samples.

Results

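The cytosolic ribosomal protein genes of *Drosophila melanogaster* were examined one by one for occupancy by zf30C, a zinc finger protein, in whole embryos. Members were the genes of the Ensembl annotation BDGP6.54 whose symbols are RpL, RpS or RpLP, a number and at most letters after it. The gene sta (stubarista, the fly RpSA) was added and the RpS6 kinase symbols were left out. Symbols with a hyphen, such as RpL37-1 and RpL37-2, do not match and were not counted. The rule gave 86 of 13945 protein-coding genes, 48 of the large and 38 of the small ribosomal subunit. The data were region lists from chromatin immunoprecipitation with sequencing (ChIP-seq) on a single group of 3 biological replicates. The embryos were 0 to 24 h old and of mixed sex, from 1 transgenic line that stably expresses zf30C with GFP at its C-terminal end. They hold all embryonic tissues and a wide range of ages, so that a level is a mixture over cells. The antibody target is labelled as zf30C, whereas a free-text label calls the libraries an input control. They were treated as immunoprecipitated, since the notes with the lists pair each with a separate control alignment. No control library, untagged line or second condition was analysed here, so the comparisons are between genes.

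Each ribosome joins a large subunit, which forms peptide bonds, to a small subunit, which reads the mRNA. Their proteins are needed in near-equal amounts, and their genes are among the most highly transcribed of growing cells. In flies, loss of 1 copy of many of these genes gives the Minute phenotype of slow development and thin bristles. Many fly ribosomal protein genes start transcription at a pyrimidine-rich TCT initiator in place of the usual initiator element. The factors Dref, M1BP and Myc with Max have been linked to their transcription in flies.

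The 30-base windows of 6 of the 7 genes with the highest pooled signal are shown for the pyrimidine-rich sequence at their starts, on the strand of the gene, with 15 bases before the annotated transcription start. Capitals mark a TCTTT or CCTTT word, searched on the gene's strand, which was taken as a TCT initiator by the distance of its C from the start. Sequences here and below are from the RefSeq copy of Release 6, the assembly named dm6.
RpL7 (chr2L:10201085-10201114, plus strand): gtatagcacgtttccggTCTTTctttccct
RpS4 (chr3L:13041786-13041815, plus strand): caccgcccgcaaatctgCCTTTtccttttc
RpL24 (chr2L:13395078-13395107, minus strand): gtttccacttccgtttTCTTTtcttttcgt
RpL28 (chr3L:3222944-3222973, minus strand): tgtcgggctgccatattTCTTTccttcttg
RpL13 (chr2L:9967315-9967344, plus strand): agttggttgcgatttCCTTTttaattcgtt
RpL34b (chr3R:9401188-9401217, minus strand): tttctagtttcgtcTCTTTgaggtatgcac
The remaining one of the 7, RpL11, is not shown and had no such word within 5 bp of its start. Where a gene has several annotated starts, the one with the word nearest to it is shown; in all of the 6 but RpS4 it lay downstream of the start nearest to the peak's summit, by 2 bp in RpL28 and up to 96 bp in RpL7. The C lay at the start itself in RpL34b, 1 bp downstream in RpL13, 2 bp downstream in RpL24 and 3 bp downstream in RpL7, RpS4 and RpL28. A TCT word with its C within 2 bp of a start was found in 18 of 86 ribosomal protein genes (20.9%), against 166 of 13859 other protein-coding genes (1.20%) and 1.32% of all. With the C within 5 bp it was found in 54 of 86 (62.8%), against 408 of 13859 other genes (2.94%) and 3.31% of all. The word was therefore common at the annotated starts of these genes, mostly a few bases from the exact position.

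Peaks at these genes were frequent. A peak is a summit of the list that passed the authors' threshold for the irreproducible discovery rate (IDR), which scores how well a region keeps its rank from replicate to replicate. A gene was counted as having a peak when a summit stood 500 bp or less from at least 1 of its starts. The 3567 peaks are also the highest summits of a pooled list of 30000. Of 86 ribosomal protein genes, 81 had a pooled-list region at a start (94.2%), and over all protein-coding genes the share was 44.1%. Peaks stood at 46 of the 86 (53.5%, exact 95% interval 42.4 to 64.3%), and at 9.65% of all protein-coding genes. Among genes with a pooled-list region, the shares were 46 of 81 ribosomal protein genes (56.8%, 45.3 to 67.8%) and 21.9% of all such genes. Intervals cover counting error only, and neighbouring genes can share a peak.

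The frequency did not come with the highest signals. Pooled signal of the 46 peaks had a median of 327 (range 197.4 to 641.7), and that of 1300 other genes with a peak had a median of 322 and reached 12470. By rank in the pooled list, where 1 is the highest signal, ribosomal protein genes ran from 818 to 3456 with a median of 1817, and the other genes had a median of 1850. Only 2 of 46 (4.35%, exact 95% interval 0.531 to 14.8%) ranked 891 or higher, against 351 of 1300 other genes (27.0%). At rank 1783 or higher, the middle of the list, stood 21 of 46 ribosomal protein genes (45.7%) and 623 of 1300 other genes (47.9%). The peaks thus seldom stood near the top of the list. Quartiles of their rank were 1493 and 2362, against 809 and 2796 for the other genes. The lowest ranks are set by the end of the list, below which further ribosomal protein genes follow. Signal is used as the authors deposited it. Its unit is not given and its scale differs between lists, so replicates are compared by rank within their own lists of 30000 regions.

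**Figure D1:**
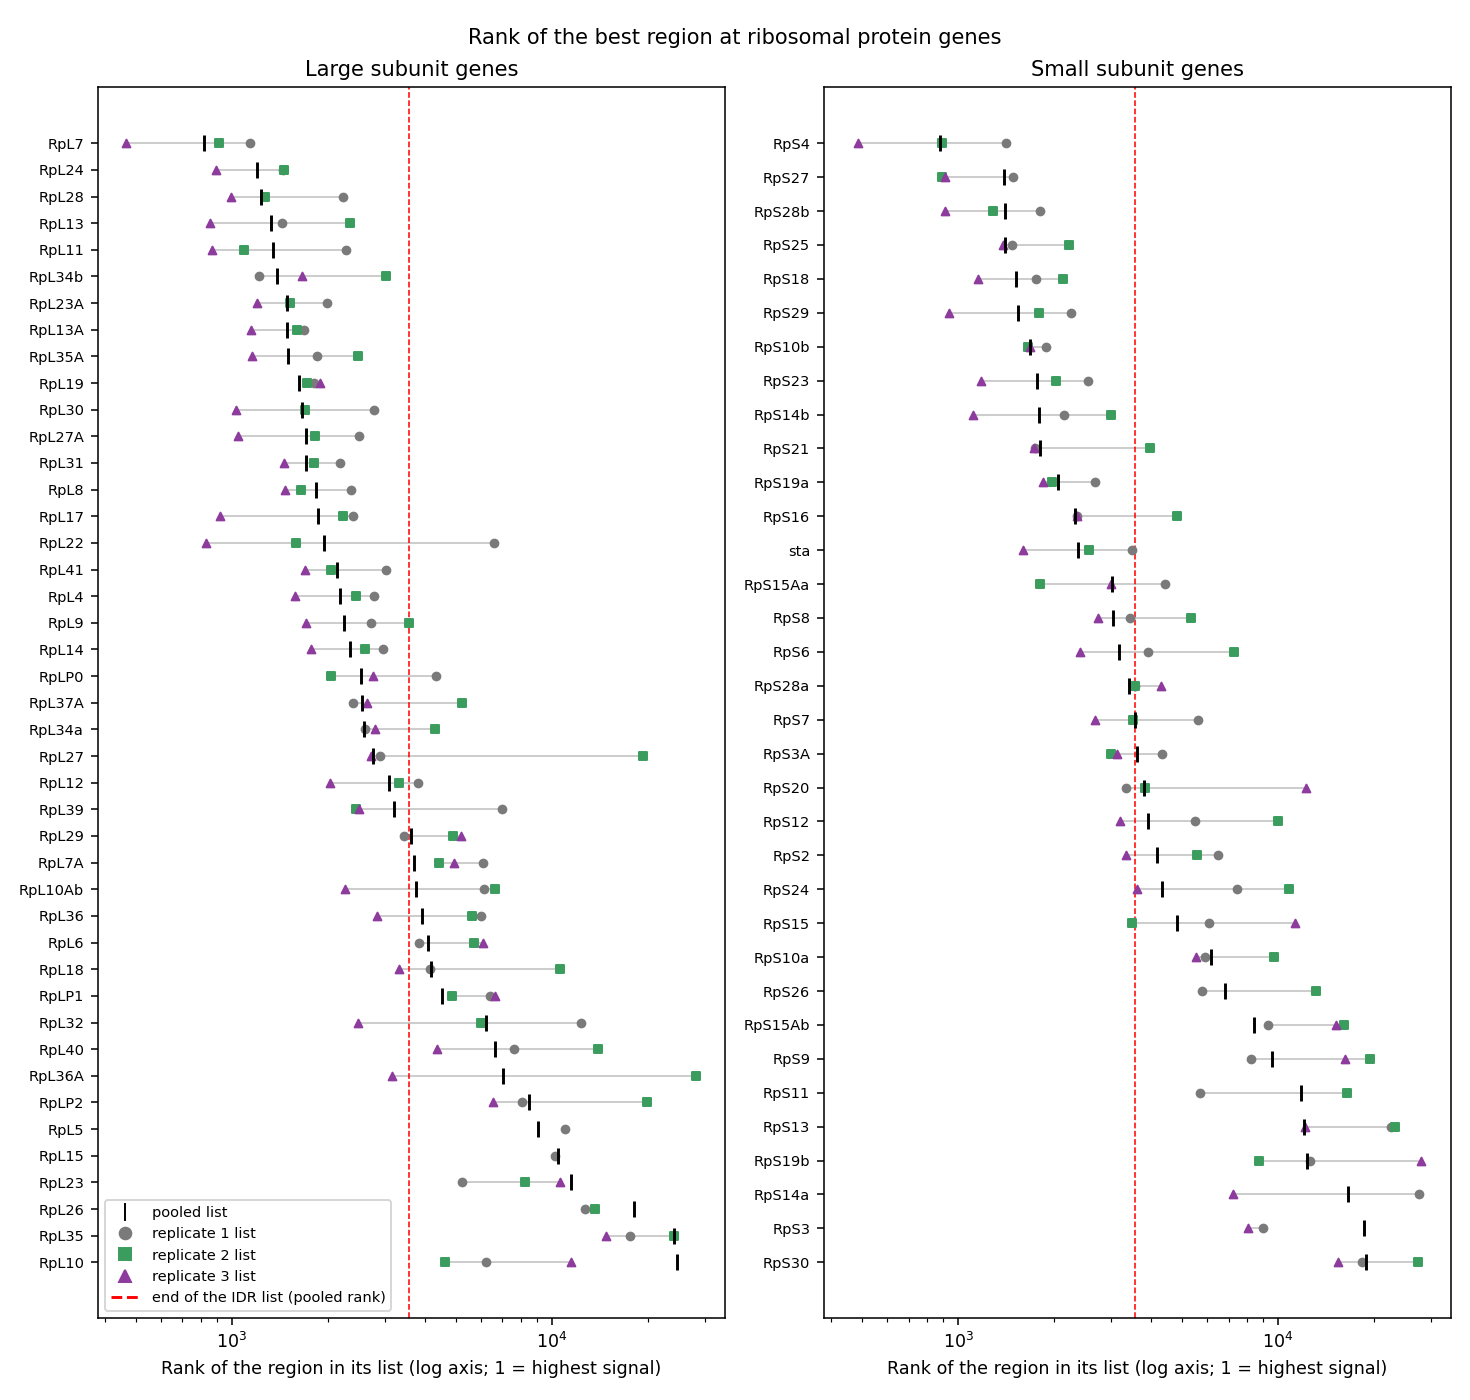
Rank of the best region at ribosomal protein genes with a pooled-list region, large subunit left and small subunit right, without a few genes not reported here, on a log axis where 1 is the highest signal. Bars give the pooled list, points the 3 replicate lists, a missing point a region absent from that replicate's list, and the dashed line the end of the IDR list at pooled rank 3567. Replicate 3 (triangles) often has the highest rank of a gene.

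RpL7 and RpS4 led, both ranking in every replicate among the regions that would fill a list of 3567. RpL7 (FBgn0005593, chr2L:10201004-10202321) encodes a large subunit protein. Its region ranked 1138 in replicate 1, 912 in replicate 2 and 467 in replicate 3, with a pooled signal of 641.7 and its summit 29 bp downstream of a start. RpS4 (FBgn0011284, chr3L:13041756-13044234), a small subunit protein gene, ranked 1410, 889 and 488 in replicates 1, 2 and 3, with a pooled signal of 602.8 and its summit 19 bp upstream of a start. The order of the replicates was the same at both genes, and at neither did any replicate fall below rank 1410.

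RpL24, which encodes a protein of a bridge between the subunits, followed at ranks 1439, 1450 and 889, with a summit 12 bp upstream of a start. RpL28 ranked 2217, 1270 and 992. Its summit, 46 bp upstream of its start, also lay within 500 bp of a start of eIF1, a factor of start-codon selection. The replicate 1 region, with rank 2217, had its summit at -314 bp, nearer to a second peak of RpL28 at -320 bp. RpL13 ranked 1438, 2347 and 855, with a summit 8 bp upstream. That summit was also within 500 bp of a start of Dref, which encodes a factor binding the DNA replication-related element. RpL11, whose protein joins the 5S RNA particle with RpL5, ranked 2275, 1092 and 866. The next 6 by pooled signal were RpL34b, RpS27, RpS28b, RpS25, RpL23A and RpL13A, with signals from 385.7 to 408.5. In these 6 genes every replicate rank lay between 893 and 3021.

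The end of the IDR list runs through the genes without a gap. Just inside it stood RpL12 (signal 213.5, rank 3102), RpS6 (209.7, rank 3189), RpL39 (208.3, rank 3215) and RpS28a (199.2, rank 3417). Just outside stood RpS7 (192.9, rank 3571), RpS3A (191.5, rank 3613), RpL29 (191.3, rank 3617), RpL7A (188.6, rank 3712) and RpL10Ab (187.2, rank 3765). RpS6, the substrate of the S6 kinase, ranked 3923, 7261 and 2409 in replicates 1, 2 and 3. RpS7 ranked 5601, 3526 and 2685, so that 2 replicates placed it higher than rank 3567 and only 1 replicate placed RpS6 there. Down to pooled rank 5000, another 14 ribosomal protein genes had a region without a peak. The count of 46 therefore depends on where the list ends.

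Of the 35 genes with a pooled region but no peak, the lowest were RpL10 (signal 50.9, rank 24641) and RpL35 (51.7, rank 24097). RpL10, whose protein acts late in large subunit assembly, had ranks of 6223, 4627 and 11466 in the replicates. These belong to replicate summits 1, 5 and 21 bp downstream of the start that overlap its pooled region, whose own summit lay 205 bp upstream. The pooled RpL35 summit was nearer to a start of Rab18 (216 bp) than to that of RpL35. In 9 of the 35 genes the region was absent from at least 1 replicate list, as at RpL36A (none, 28291 and 3168) and RpL5 (10983, none and none). No gene with a peak was absent from a replicate list. A further 5 genes had no pooled-list region within 500 bp of a start. They were RpL3, whose protein lies by the peptidyl transferase centre, RpL21, RpL38, RpS27A, which encodes a fusion with ubiquitin, and RpL10Aa.

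Support by the replicates was uneven. The best region was among the 3567 highest of all 3 replicates at 31 of 81 ribosomal protein genes (38.3%, exact 95% interval 27.7 to 49.7%), against 13.1% of all genes with a pooled region and 12.7% of the other such genes. Within single replicates the counts were 40 of 81 in replicate 1 (49.4%), 39 in replicate 2 (48.1%) and 54 in replicate 3 (66.7%). Other genes gave 20.7%, 20.3% and 23.6% in the same order. The share was above that of other genes in each replicate. Of the 46 genes with a peak, 31 had such support in all replicates, 12 in 2, 2 in 1, and RpS28a in none.

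Replicate 3 gave the highest of the replicate ranks at 35 of 46 ribosomal protein genes (76.1%, exact 95% interval 61.2 to 87.4%), against 458 of 1077 other peaks at coding genes (42.5%). Among all peaks of the IDR list, the median percentile of the 46 was 32.4 in replicate 1, 40.6 in replicate 2 and 54.5 in replicate 3. For other genes with a peak it was 44.6, 43.0 and 50.7. Ribosomal protein genes thus stood below the other genes in replicates 1 and 2 and above them in replicate 3. The depth of the replicates is unknown, and its part in this was not tested. A peak with support by both replicates 1 and 2 was found at 31 of 81 ribosomal protein genes (38.3%) and 13.9% of other genes. The IDR list behind this count was made from all 3 replicates, so replicate 3 still has a part in it.

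By the span of replicate ranks, RpL27 and RpL22 differed most among the genes with a peak. RpL27 ranked 2911 in replicate 1, 19253 in replicate 2 and 2726 in replicate 3. RpL22 ranked 6606, 1588 and 832, which put it at the 1.80, 53.4 and 73.9 percentiles of all peaks, the largest SD of the percentile among these genes (37.2, n = 3). RpL39, whose protein lines the exit tunnel, ranked 7001, 2443 and 2488. In RpL27 replicate 2 was far below the others, and in RpL22 and RpL39 it was replicate 1. At the other extreme RpL19 ranked 1800, 1711 and 1890 and RpS10b 1877, 1650 and 1678. Across genes with a region in both lists, Spearman coefficients of rank were 0.74 for replicates 1 and 2 (n = 75), 0.80 for 1 and 3 (n = 74) and 0.83 for 2 and 3 (n = 74). Over the 46 genes with a peak they were 0.41, 0.57 and 0.71. Genes share their libraries and are not independent, and no p-value is attached.

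Large and small subunit genes gave similar shares. Peaks stood at 27 of 44 large subunit genes with a pooled region (61.4%, exact 95% interval 45.5 to 75.6%) and at 19 of 37 small subunit genes (51.4%, 34.4 to 68.1%). Top regions in all 3 replicates were found at 19 of 44 large subunit genes (43.2%) and 12 of 37 small subunit genes (32.4%). In replicate 1 the best region was among the top at 24 of 44 large and 16 of 37 small subunit genes, in replicate 2 at 23 and 16, and in replicate 3 at 32 and 22. The share was higher for the large subunit in each replicate, while the intervals of both subunits overlapped widely. Median pooled signal was 324 at large and 330 at small subunit genes with a peak. The difference was not tested, since genes are not replicates.

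**Figure D2:**
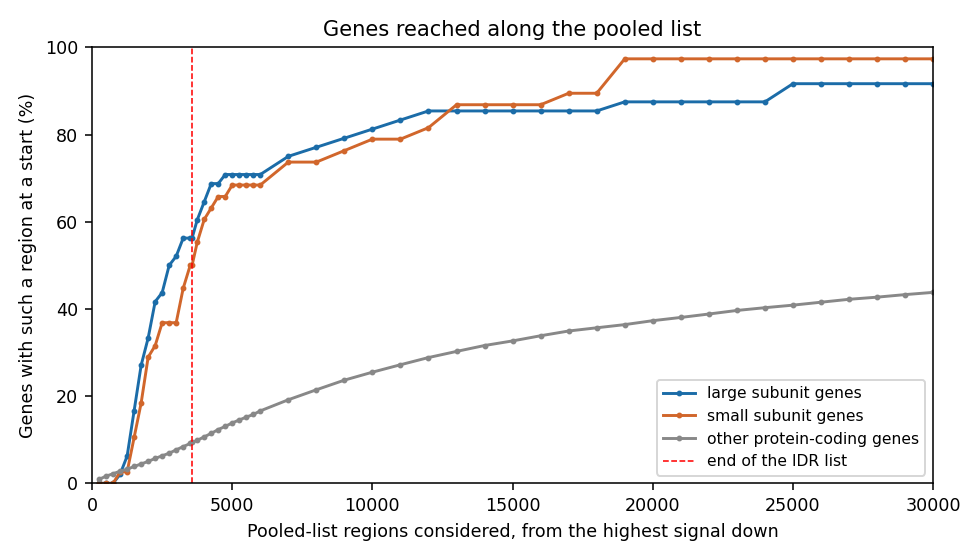
Share of genes (%) that have a pooled-list region within 500 bp of a start, as the list is read from the highest signal down, for 48 large subunit genes, 38 small subunit genes and 13859 other protein-coding genes. The subunit curves start later than the grey curve, pass it at ranks between 818 and 1500 and have reached 27 of 48 large and 19 of 38 small subunit genes where the IDR list ends (dashed).

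Read down the pooled list, most ribosomal protein genes had come in by rank 5000. By rank 1500 it had reached 8 of 48 large and 4 of 38 small subunit genes, by rank 2500 21 and 14, and by rank 5000 34 and 26. Between ranks 2500 and 3000 no small subunit gene was added, and between 3000 and 3567 another 5 were, against 2 of the large subunit. The spacing of a few small subunit genes near the end of the list therefore sets part of the difference in peak counts.

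The genes can also be read by where their proteins work in the ribosome. These groups were made from known roles after the values had been seen, hold few genes, and are described only. Of the stalk proteins, which recruit translation factors, RpLP0 had a peak (ranks 4346, 2038 and 2758) and RpLP1 and RpLP2 had pooled regions only, at pooled ranks 4526 and 8493. Of the 5S RNA partners, RpL11 had a peak at pooled rank 1348 and RpL5 had a region at rank 9076. The exit tunnel proteins RpL4, RpL17 and RpL39 and a rim protein, RpL23A, had peaks, at pooled ranks 2176, 1857, 3215 and 1485. RpL26 and RpL35, also at the rim, had regions at ranks 18118 and 24097. Not every rim protein is listed, so no share of the rim can be read from these. Of the genes that encode a fusion with ubiquitin or a ubiquitin-like protein, RpL40 and RpS30 had pooled regions at ranks 6624 and 18795, and RpS27A had none. RpS23 and RpS15, whose proteins reach the decoding centre, stood at ranks 1767, with a peak, and 4836, without. RpS2 and RpS3, at the mRNA entry channel, had pooled regions at ranks 4171 and 18509. At sta the peak ranked 3498, 2570 and 1596 in the replicates.

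**Figure D3:**
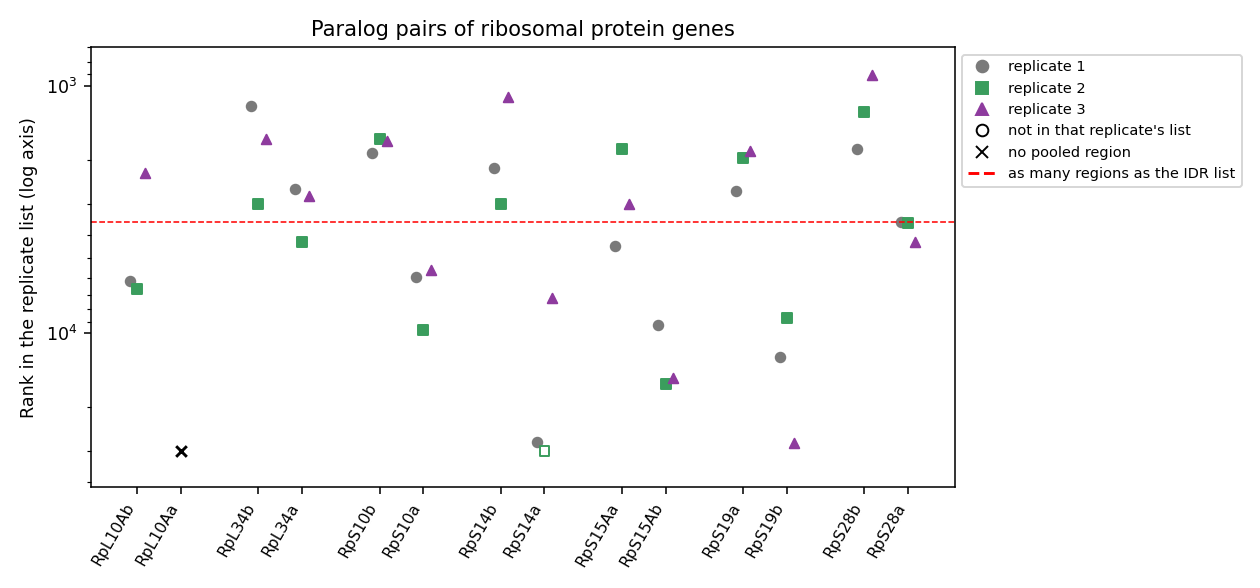
Rank in each replicate list (log axis, 1 highest, at the top) of the best region at both genes of 7 paralog pairs. Filled points are the 3 replicates, open points regions absent from that list, the cross a gene with no pooled region, and the dashed line rank 3567. In the 6 pairs shown with a region at both genes, the gene on the left is higher in all 3 replicates.

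Of the 8 paralog pairs, 7 had a pooled region at both genes. In each of these 7, the gene with the higher pooled signal also ranked higher in 3 of 3 replicates, with a region absent from a replicate list counted as lower. The pooled list was made from the same replicates. Both genes had a peak in 2 pairs, 1 gene in 5 pairs and neither in 1 pair. RpS10b ranked 1877, 1650 and 1678, and RpS10a 5916, 9702 and 5558. RpS19a ranked 2674, 1960 and 1846, and RpS19b 12574, 8717 and 27992. The RpS19b summit lay 383 bp upstream of its start and 1 bp from a start of CG5854, so its region is one at another gene's start. In both pairs the ranks of the 2 genes did not overlap, as in the RpS14, RpS15A and RpS28 pairs below, but not in the RpL34 pair. How often this holds for other pairs of genes was not counted, and the pairs were ordered by pooled signal from the same replicates.

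RpS15Aa ranked 4448, 1797 and 3012, and RpS15Ab, with the same coding length and 98.2% identity over 390 bp, ranked 9303, 16031 and 15177. RpS14b and RpS14a stand 220 bp apart on the X chromosome and share 97.8% of their coding bases. RpS14b ranked 2146, 3014 and 1111, and RpS14a 27616, absent and 7237. Reads that fall in the coding parts of such near-identical copies cannot be placed with certainty, and their treatment in the alignment is not stated in the labels or headers. Upstream of the starts, where the summits of RpS14b and RpS15Aa lay, the identity was lower, at 64.2% in the RpS14 pair and 56.7% in the RpS15A pair.

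RpL34b ranked 1214, 3021 and 1651, and RpL34a 2613, 4299 and 2798. The RpL34a summit, 120 bp upstream of its start, was 109 bp from a start of Trmt61, named for a tRNA methyltransferase. RpS28b ranked 1798, 1282 and 909, and RpS28a 3576, 3577 and 4306. The RpS28a summit lay 446 bp upstream of its start and 252 bp from a start of Axn, an inhibitor of Wingless signalling. RpL10Ab, without a peak, ranked 6140, 6656 and 2256, and RpL10Aa had no pooled region. Both RpL34a and RpS28a therefore had a pooled summit nearer to the start of another gene than to their own, as did RpS19b. For RpL34a this is not resolved, since 120 and 109 bp differ by less than the median SD of summits between replicates (18.2 bp). The RpL34a replicate summits lay at -163, -105 and -112 bp. Those of RpS28a lay at -481, -179 and -208 bp, so the distance of its summit is not resolved either.

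The starts of RpS14b, RpS14a, RpS19a and RpS19b are shown in the same way as those above, to set side by side paralogs that differ widely in rank.
RpS14b (chrX:7935157-7935186, plus strand): tgtttttttcTCTTTtagttgctgatcgac
RpS14a (chrX:7933727-7933756, plus strand): ttgacagctacgtcaacctTCTTTtttgat
RpS19a (chrX:16637879-16637908, plus strand): ccaacttcacgcgccttgtTCTTTtttccg
RpS19b (chr3R:23933516-23933545, minus strand): acttgccaatcgtccattttgactaaagtc
A TCT word within 5 bp of the start shown was present in RpS14b, RpS14a and RpS19a, and not in RpS19b. The start shown for RpS14b lay 274 bp downstream of the one to which its summit was assigned. Over all ribosomal protein genes it was found within 5 bp at 31 of 46 genes with a peak (67.4%, exact 95% interval 52.0 to 80.5%) and 23 of 40 without (57.5%, 40.9 to 73.0%). Within 2 bp the counts were 11 of 46 (23.9%) and 7 of 40 (17.5%). Among the 1300 other genes with a peak, 54 had the word within 5 bp (4.15%).

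Genes with names near those of the family, which the symbol rule leaves out, had no peak. RpL37-1 and RpL37-2 were left out of the 86 only by the hyphen in their symbols. RpL37-1 had a pooled region at rank 6102, with replicate ranks of 14016, 9037 and 3319, and RpL37-2 one at rank 19030. RpLP0-like had a region at rank 17026, against 2529 for RpLP0. RpL7-like, RpL22-like, RpL24-like and RpS28-like had no pooled region, although RpL7, RpL22, RpL24 and RpS28b had peaks. Over all protein-coding genes 44.1% had a pooled region and 9.65% a peak, so lacking either is common, and these genes are few. Coding identity of the 5 genes with -like in their symbol to their partners was between 59.2% and 65.3%. Between RpL37-1 and RpL37-2 it was 71.9%.

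The summits lay close to the starts. The median position of the 46 was 17.5 bp upstream of the nearest start (quartiles -31.8 and -4.25 bp, negative upstream). Of the 46 summits, 35 were upstream (76.1%), close to the share at other genes with a peak (959 of 1300, 73.8%). Taken from each replicate's own summits, the median position was -16 bp in replicate 1, -15 bp in replicate 2 and -9 bp in replicate 3. At 38 of 46 ribosomal protein genes (82.6%, exact 95% interval 68.6 to 92.2%) the summit was within 50 bp of a start, against 305 of 1300 other genes with a peak (23.5%, 21.2 to 25.9%). Measured to the nearest start of any gene, the median distance was 20.5 bp for ribosomal protein gene peaks and 128 bp for 1363 other promoter peaks. Among the 35 ribosomal protein genes with a pooled region only, 21 summits were within 50 bp. That is a lower share than the 82.6% at genes with a peak, although the exact 95% intervals of both shares overlap. Most ribosomal protein genes on either side of the list's end thus had a summit near the start. The share was not counted for other genes with a pooled region only, so below the list's end it has no background.

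**Figure D4:**
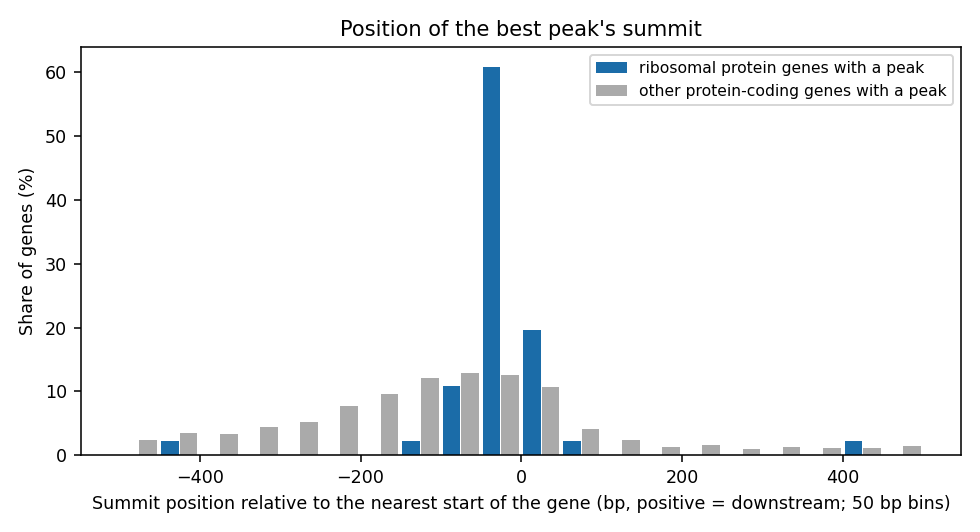
Position of the best peak's summit relative to the nearest start of the gene, in 50 bp bins, as a share of 46 ribosomal protein genes (blue, left in each bin) and of 1300 other protein-coding genes with a peak (grey). Of the ribosomal protein genes, 60.9% fall in the bin just upstream of the start and 19.6% in the bin just downstream, while the other genes spread further upstream.

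The closest summits were those of RpL37A, at the start itself, RpL12, 1 bp downstream, sta, 3 bp downstream, and RpL8 and RpL35A, 4 bp upstream and 4 bp downstream. The summit of a peak moved between replicates by a median SD of 18.2 bp (n = 46 genes, 3 replicates each), and by 21.2 bp at 1063 other peaks, so the distances of single genes are not resolved below that. Regions were more often narrower than 440 bp, which was taken as the default width of these lists. Of the 46, 25 (54.3%) were narrower than that, against 475 of 1300 other genes (36.5%). Median width was 272 bp, against 440 bp for the other genes with a peak, where the median is the default and not a measured extent. Narrow regions stood mostly at the higher-ranked of these genes.

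In 41 of 46 genes the nearest start of any gene was the gene's own. The exceptions were RpL34a and RpS28a, described above, RpS27, RpL22 (at a long non-coding RNA gene) and RpS6 (at CR33222). RpS27 had 3 peaks, at 419, 4 and 212 bp downstream of a start, with pooled signals of 406.4, 402.2 and 262.6. The first is reported as its best by the signal rule, and the peak nearest to its start ranked 1719, 2639 and 604. RpL28 had a second, lower peak (pooled signal 231.6), at position -320 bp and nearer to the start of eIF1. RpS12, known in flies for its part in cell competition, had 2 pooled summits just below the list's end. One lay 7 bp upstream, and the other, 410 bp upstream, overlapped regions with ranks of 1232, 886 and 616 in the replicates.

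Many of these peaks lay near a start of another gene. Of the 46 peaks, 21 (45.7%) also lay within 500 bp of a start of another protein-coding gene, such as Ripalpha at RpL7, CG8132 at RpL34b, CG4820 at RpS25, plu at RpS18, Rok at RpS19a and Nelf-E at RpL14. These starts can be on either strand, and the same share was not counted for other genes with a peak. No peak was shared by 2 ribosomal protein genes, and the 46 genes had 46 distinct best summits. A start on the opposite strand within 1000 bp was present at 31 of 46 genes with a peak (67.4%), 22 of 40 without (55.0%), and 590 of 1300 other genes with a peak (45.4%). In all but RpL34a and RpS28a of these 21, the start nearest to the summit was that of the ribosomal protein gene.

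Genes with a small nucleolar RNA gene inside, whose introns supply guides for ribosomal RNA modification, had a peak at 17 of 29 (58.6%, exact 95% interval 38.9 to 76.5%), against 29 of 57 of those without (50.9%, 37.3 to 64.4%). On the X chromosome 10 of 14 had a peak, and on the other arms with more than 1 gene between 8 of 17 and 10 of 18. RpS3A, the single gene on chromosome 4, had none. The intervals of these groups overlap.

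Short words of known promoter factors were searched on both strands of windows that reach 100 bp to either side of the best summit. The windows below hold TATCGATA, the DNA replication-related element (DRE) bound by Dref, in capitals, and are given on the strand of the gene because they include genes from the upper and lower ends of the list.
RpL28 (chr3L:3223034-3223063, minus strand): tacgaaatgctTATCGATAgttgccctgcc
RpS25 (chr3R:11216328-11216357, minus strand): ccaccaccaacTATCGATAggcaggcgagc
RpS29 (chr3R:9778046-9778075, plus strand): atcgtggaaaaTATCGATActgccaccccc
RpS10b (chrX:19597943-19597972, plus strand): tcttaagataaTATCGATAtattgccggcg
RpL27 (chr3R:25685073-25685102, minus strand): ttgccactaagTATCGATAaaaagacgacg
RpS6 (chrX:7901368-7901397, minus strand): tgagcacgaacTATCGATAtgcggcggtac
TATCGATA was present at 12 of 46 ribosomal protein genes with a peak (26.1%, exact 95% interval 14.3 to 41.1%) and at 9 of 35 with a pooled region only (25.7%, 12.5 to 43.3%). It was present in 48 of 1363 other promoter peaks (3.52%) and in 373 of 6787 other pooled regions at promoters (5.50%). The word was thus more frequent in the windows of ribosomal protein genes, and as frequent without a peak as with one. For this and the other words, windows were not matched for distance to a start. The median distance of the summit was 20.5 bp for ribosomal protein gene peaks and 128 bp for other promoter peaks. The part of this placement in the shares was not tested. CGATA, a BEAF-32 word that lies inside TATCGATA, was present at 31 of 46 (67.4%) and 20 of 35 (57.1%), against 31.6% and 32.0% of the other regions. Counted outside TATCGATA it was present at 25 of 46 (54.3%) and 19 of 35 (54.3%), against 30.1% and 30.04%.

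The E-box CACGTG, bound by Myc with Max among others, was present at 6 of 46 genes with a peak (13.04%, exact 95% interval 4.94 to 26.3%) and 4 of 35 without (11.4%), against 2.35% of other promoter peaks and 2.95% of other pooled regions at promoters. Its windows are shown because they belong to several of the highest-ranked genes. Capitals mark the E-box.
RpL7 (chr2L:10201008-10201037, plus strand): tggcgcgcgtgtCACGTGtgcacgcatttc
RpS4 (chr3L:13041850-13041879, plus strand): tttgcagctagcCACGTGctaagttttgtc
RpL24 (chr2L:13395158-13395187, minus strand): gcacgccttcggCACGTGgtggtatttttt
RpS28b (chrX:9554656-9554685, plus strand): aagcgcatcttgCACGTGaattctctgcga
RpL8 (chr3L:2587508-2587537, plus strand): tttacggtaagcCACGTGctaaattttgta
Those 5 genes and RpL11 were the 6 with an E-box, and their median pooled rank was 1272, against 1921 for the 40 without. The link was seen after the ranks were known and is given as a description. For TATCGATA the medians were 2102 with and 1792 without the word, and for CGATA 1898 and 1799.

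The motif of M1BP, GGTCACACT, had the same counts as the E-box, 6 of 46 and 4 of 35, against 2.94% and 3.85% of the other regions. Windows with this word in capitals, on the strand of the gene and therefore sometimes in reverse complement, are shown for the genes where it lay nearest to a start.
RpL7 (chr2L:10200979-10201007, plus strand): ctccgcggccAGTGTGACCgtttggccga
RpL27A (chr2L:4458330-4458358, minus strand): gccgccgggcGGTCACACTgctacaaccg
RpLP0 (chr3L:22076055-22076083, plus strand): ccatcgaagcGGTCACACTgggtgccgcc
RpL7 held the M1BP word 15 bp upstream and the E-box 16 bp downstream of the outermost start, counted to the first base of each word. The word GAGAG of the factor encoded by Trl was less frequent than elsewhere, at 6 of 46 (13.04%) and 4 of 35 (11.4%), against 36.8% of other promoter peaks and 28.8% of other pooled regions at promoters. Matches are descriptions of the sequence, and no binding of these factors was measured.

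**Figure D5:**
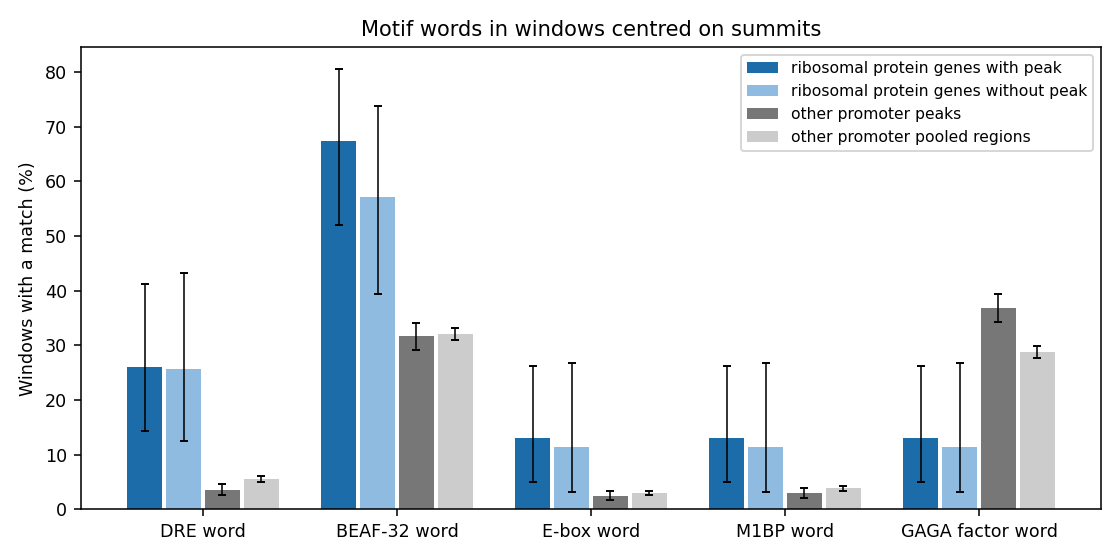
Share of windows reaching 100 bp to either side of a summit (%) with at least 1 match on either strand, for ribosomal protein genes with a peak (n = 46), ribosomal protein genes with a pooled region only (n = 35), other promoter peaks (n = 1363) and other pooled regions at promoters (n = 6787). Error bars are exact 95% intervals. All words but GAGAG are more frequent at ribosomal protein genes, with and without a peak, in windows not matched for distance to a start.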

How the data were processed

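The authors' region lists were used as deposited, on build dm6 per the file headers. Per the notes with the lists, each replicate list was made with a shared control alignment, and the IDR and pooled lists come from all 3 replicates. Aligner, peak caller, versions, IDR threshold and signal unit: not given in the sources used here. Read depth is unknown. The deposited signal values were ranked within each list, and no control library was analysed here.

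Summits within 500 bp of an annotated start were assigned to genes, and the highest pooled signal gave the best region. A replicate's rank is that of its highest region overlapping by at least 1 bp. Scripts used Python 3.11.15, numpy 2.4.6, pandas 2.3.3, scipy 1.17.1 and biopython 1.88, and the matching was tested on simulated data. Shares carry exact (Clopper-Pearson) 95% intervals. No test was run, since there was 1 group.

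Members and lists were chosen with earlier results of these data known. Named genes were the 12 highest, the 5 on either side of the list's end, all paralogs, genes without a region, those with the most discordant replicates, shared or displaced peaks, and the 4 highest of each comparison list. A few genes that meet this rule are counted but not reported here by name. Alternatives were other windows, list lengths, overlap rules and motif windows, and each replicate left out of the support count. The IDR list was not remade without it.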

Additional observations from a re-analysis of the deposited data

How the results depend on the processing

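The count of 46 ribosomal protein genes with a peak was 45 with a 200 bp window, 47 with 1000 bp and 42 with only the nearest start counted. At rank 1783 or higher it was 21, of which 13 large and 8 small subunit genes, against 10.3% of other genes with a pooled region. Support by all 3 replicates gave 31, of which 12 small subunit genes. With each replicate left out of the support count, peaks backed by both others numbered 31 to 38 in all. They were 19 to 23 for the large and 12 to 15 for the small subunit, where 12 is without replicate 3. Shares stayed above those of other genes (13.9 to 14.8%). The IDR list itself was kept as made from all 3 replicates, so these counts are not free of the replicate left out. With 0.5 or 2 times as many top regions, 5 or 52 genes were among the top of all replicates. The median summit position was -5 bp when only the outermost 5' end was used, and otherwise -20.0 to -15.5 bp. The TCT count at genes with a peak was 31 within 5 bp and 1 at the exact start. In windows of 50 bp to either side the CGATA share was 39.1%; ribosomal protein genes had higher shares than other regions for all words but GAGAG. Median signal stayed between 327 and 359. Every share rests on where the lists end and on annotated starts, of which 44 genes have several. No paired analysis was possible because there was 1 group.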

Other observations

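Other gene lists of the translation machinery were set beside the ribosomal protein genes, among genes with a pooled-list region, where 21.9% of all genes had a peak. Mitochondrial ribosomal protein genes had a peak at 8 of 47 (17.0%, exact 95% interval 7.65 to 30.8%), and their highest, mRpL41, stood 148 bp upstream of a start at ranks 64, 148 and 118 in replicates 1, 2 and 3. It was followed by mRpS10, mRpS23 and mRpL23 at pooled ranks 1014, 1436 and 2443. Translation factors had a peak at 8 of 28 (28.6%, 13.2 to 48.7%), led by eIF4EHP, a cap-binding repressor, at pooled rank 1149, eIF1, whose peak is that of RpL28, eIF6 at 1420 and the elongation factor gene eEF2 at 1524.

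Ribosome biogenesis factors had a peak at 3 of 21 (14.3%, 3.05 to 36.3%). NHP2, a protein of small nucleolar particles that guide pseudouridylation, had a pooled rank of 160, and Fib, which encodes fibrillarin, one of 2165. Nob1 matched no gene in the annotation by that symbol. RNA polymerase I and III subunit genes had a peak at 0 of 10 (upper limit of the exact 95% interval 30.9%), and 1 gene of the ribosomal protein-like list had a pooled region, without a peak. Regulators of ribosomal protein genes and of TOR signalling had a peak at 6 of 13 (46.2%, 19.2 to 74.9%), with Dref at rank 1328 through the peak of RpL13, then Trl, which encodes GAGA factor, Thor, the fly 4E-BP, and Mnt at 2098, 2516 and 2670. Thor ranked 9874 in replicate 1 and 1739 and 1591 in replicates 2 and 3. No difference between lists was tested.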
